A study of Mus musculus with 12 samples.

Results

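The transcriptomes of freshly sorted regulatory T cells from Gclc mutant and wild-type (WT) mice were compared across all genes. The 6 libraries of this comparison, of 12 in the series, were chosen by their labels: nTregs of genotype Gclc mutant, numbered 1, 2 and 4, and nTregs of genotype WT, numbered 1, 2 and 3. All came from C57BL/6 mice aged 8 weeks, and the labels describe the nTregs as sorted T-regulatory cells. No source used here gives the mutant allele, a Cre driver or the sorting gate. The other 6 libraries, 3 of each genotype, are Tregs induced in culture (iTregs). All 12 libraries were fitted together, so the iTregs also helped to set the filter, the scaling and the estimate of each gene's spread. The effect of the genotype in iTregs is given only where that in nTregs was set against it. Each nTreg library held 28707579 to 39886130 assigned counts of stranded mRNA sequencing. Levels are given as counts per 1000000 assigned counts (CPM), scaled between libraries by trimmed mean of M-values (TMM) factors. The labels do not say if the 3 libraries of a group are separate animals. Each p-value therefore refers to the spread among libraries within the groups of all 12, part or all of which may be technical.

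The product of Gclc is the catalytic part of glutamate-cysteine ligase, which joins glutamate and cysteine in the committed step of glutathione synthesis. Glutathione is the main low-molecular-weight thiol of cells: it reduces peroxides and keeps protein cysteines reduced. Regulatory T cells (Tregs) restrain other lymphocytes, depend on the transcription factor Foxp3 and, in resting animals, are held partly quiescent by FOXO factors and by limits on growth signalling.

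Markers of Tregs and T cells were abundant in all 6 libraries and their sums were lower in all 3 mutant libraries than in WT. Summed over 11 Treg markers, which include Foxp3, Il2ra, Ikzf2 and Ctla4, the level was 4170, 4020 and 3780 CPM in WT libraries 1, 2 and 3 and 2690, 3410 and 3620 CPM in mutant libraries 1, 2 and 4. Of these 11 genes Foxp3 and Gpr83 fell, Itgae rose and 8 did not pass the test. In mutant libraries 2 and 4 the lower sum rested largely on Foxp3, at 181 and 217 CPM against 559 to 610 CPM in WT. The median log2 fold change of the 11 was -0.16, and 0.01 without mutant library 1. The call of Gpr83 was lost without mutant library 1 and without WT library 1 or 2. That of Itgae, at 104, 130 and 99.3 CPM in WT and 122, 231 and 186 CPM in mutants, with overlap, was lost under 9 of the alternatives, among them RLE scaling, DESeq2 and leaving out any library other than mutant library 1. Of 10 T cell markers 5 fell and 0 rose (3 fell without mutant library 1), and their sum was 3930 to 4280 CPM in WT and 3540 to 3690 CPM in mutants. Mutant library 1 lay far from the other libraries, at -44.9 on a first principal component that held 76.9% of the variance, against -15 and -13 for the other mutant libraries and 22 to 26.8 for WT. Counts of mutant library 1 differed from those of mutant libraries 2 and 4 by a chi-square of 51.47 and 44.81 per degree of freedom (counting noise alone gives about 1), while libraries 2 and 4 differed by 12.05 and WT libraries by 6.29 to 13.65. The 10 markers of CD8 T and natural killer (NK) cells summed to 748 CPM in mutant library 1, to 127 and 125 CPM in mutant libraries 2 and 4, and to 55.5 to 58.6 CPM in WT. The 12 B cell markers summed to 404 to 650 CPM in WT and 298 to 588 CPM in mutants, with overlap between the groups, and 8 gamma delta T cell markers to 104 to 116 and 60.4 to 155 CPM. The 14 myeloid markers summed to 59 to 65.2 CPM in WT and 83.7 to 119 CPM in mutants, and 8 erythroid markers to 111 to 389 and 178 to 884 CPM. The myeloid markers did not move together. In mutant library 1 Itgax stood at 61.7 CPM, against 2.95 to 4.01 CPM in WT. Csf1r and Lyz2 stood there at 0.474 and 4.8 CPM, against 8.15 to 8.96 and 15.8 to 16.2 CPM in WT. In mutant libraries 2 and 4 Lyz2 stood at 24.2 and 33.4 CPM. The 8 mast cell and basophil markers summed to 10.7 to 16.7 CPM in WT and to 20.1, 54.7 and 21.8 CPM in mutants; Mcpt8, Gata2, Fcer1a and Cma1 were at or near 0, while Cpa3 stood at 1.8, 1.25 and 0.713 CPM in WT, against 0.506, 26.4 and 5.35 CPM in mutants. The 10 stromal and endothelial markers summed to 137 to 153 CPM in WT and to 83.4 to 110 CPM in mutants, most of it Pecam1 (127 to 143 and 78.3 to 100 CPM), with Lum, Dcn and Col3a1 at or near 0. Most results below are therefore also given without mutant library 1. Unless the text says otherwise, a gene said to have risen or fallen passed the test in the same direction without that library. Its log2 fold change was then within 1.5 times of the value given. The motif shares, the shares by gene class and the list counts of differences from iTregs are given with all libraries alone. In such bulk samples, fewer cells of a type and less RNA per cell cannot be told apart.

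The genotype was associated with many changes of modest size. Of 17977 genes tested with edgeR's quasi-likelihood test, 3471 were higher in mutant nTregs (19.3%) and 2798 lower (15.6%) at an adjusted p below 0.05, together 34.9%. Of these 6269 genes, 3541 (56.5%) differed by less than 1.5-fold. A change of at least 2-fold was called for 1031 genes higher (5.74%) and 284 lower (1.58%), so the larger changes were mostly rises. The 3 mutant and 3 WT libraries did not overlap for 25.7% of tested genes on the higher side and for 22.6% on the lower side. Counts in the gene lists below are to be read against 19.3% higher and 15.6% lower. With scaling by library size alone, 65.4% of the called genes were higher, against 55.4% with TMM, and the median log2 fold change of all genes was 0.08 against 0.04.

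Without mutant library 1, 3359 of 18387 tested genes were higher (18.3%) and 2065 lower (11.2%). Of the 3471 genes called higher with all libraries 2967 were called higher again, and of the 2798 lower genes 1944 were called lower again. The number called in the opposite direction was 0. By the same edgeR test, 945 genes were then higher by at least 2-fold and 203 lower. Mutant library 1 held the highest level for 76.6% of the genes called higher and the lowest for 71.0% of those called lower. It was thus the most extreme library for most called genes and not only for cytotoxic ones.

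**Figure D1:**
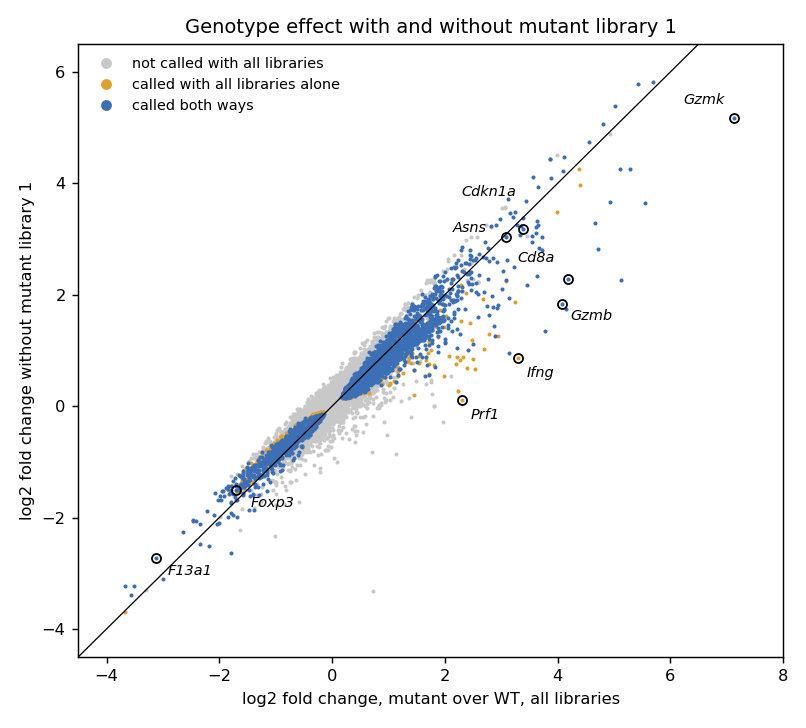
Each point is a tested gene; the x axis gives the log2 fold change of mutant over WT nTregs with all libraries and the y axis the same without mutant library 1, and the line marks equality. Points called both ways (blue) include genes well below the line, such as Tbx21 at 2.49 against 1.12. Ifng and Prf1, whose calls were lost, fall far below it at 3.30 against 0.87 and at 2.30 against 0.11.

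The targeted gene serves as the check of the genotype label, and Foxp3 is given beside it as the factor on which Tregs depend. Gclc (ENSMUSG00000032350, chromosome 9, 77754535 to 77794485, plus strand, GRCm38) stood at 78.7, 79.0 and 70.8 CPM in WT libraries 1, 2 and 3 and at 45.8, 41.7 and 43.2 CPM in mutant libraries 1, 2 and 4. The groups did not overlap, and the log2 fold change was -0.81 ± 0.07 (SE, adjusted p = 7.03e-05), with -0.81 also without mutant library 1. Which exons the mutation removes is not given here, so reads from the remaining exons may still count toward the gene. Foxp3 (ENSMUSG00000039521, chromosome X, 7579676 to 7595243, plus strand) stood at 610, 564 and 559 CPM in WT, against 135, 181 and 217 CPM in mutants. It fell by 1.70 ± 0.15 on the log2 scale (adjusted p = 7.03e-05) and by 1.51 without mutant library 1, with mutant library 1 lowest.

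**Figure D2:**
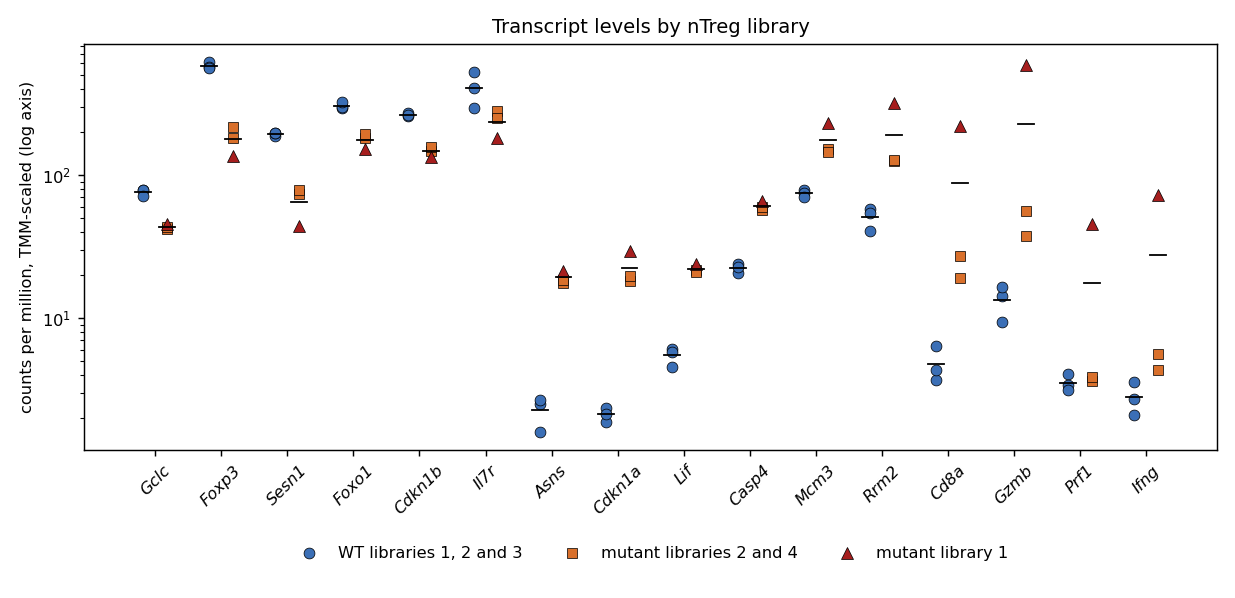
Transcript levels (TMM-scaled CPM, log axis) of 16 genes in each nTreg library; circles are WT, squares mutant libraries 2 and 4, triangles mutant library 1, and the black bars are group means. Foxp3, Sesn1 and Cdkn1b are lower and Asns, Cdkn1a and Casp4 higher in all 3 mutant libraries, whereas Prf1 is high in mutant library 1 alone, at 45.3 against 3.63 and 3.89 CPM.

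Nearly all DNA replication genes rose. Of 50 such genes tested, 48 rose and 0 fell, without mutant library 1 47 rose, and 1 fell without mutant library 4 or WT library 3; the median log2 fold change over the list was 1.05 against 0.04 over all genes, and 0.84 without mutant library 1. Mcm3 (chromosome 1, 20802968 to 20820312, minus strand), a subunit of the replicative helicase, stood at 78.9, 75.3 and 69.9 CPM in WT, against 232, 152 and 145 CPM in mutants. Its log2 fold change was 1.24 ± 0.15 (adjusted p = 0.000205) and 1.02 without mutant library 1. Uhrf1 (chromosome 17, 56303321 to 56323486, plus strand), which brings the maintenance DNA methyltransferase to newly copied DNA, stood at 41.6, 41.6 and 35.7 CPM in WT, against 155, 101 and 93.0 CPM in mutants. It rose by 1.55 ± 0.16 (adjusted p = 0.000113). Pole, the catalytic subunit of the leading-strand polymerase, rose by 1.36 ± 0.14 (adjusted p = 0.000101). In each of these genes mutant library 1 was the highest and every mutant library lay above every WT library.

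The promoters of replication genes are known binding places of E2F factors, and those of amino acid synthesis genes of ATF4, so the deposited changes were set beside promoter sequence from RefSeq (GRCm38.p6, 250 bases before to 50 after each annotated start). An E2F-type motif (TTTNNCGC, searched on both strands) was present in 19 of 48 windows of 40 replication genes (39.6%). It was present in 17.0% of 53 windows of mitosis genes, in 7.94% of the 13636 windows of all tested genes with an entry, in 10.9% of those of genes called higher and in 7.09% of those of genes called lower. An ATF4-type motif (TGATGNAA, both strands) was present in 10 of 36 windows of ATF4-linked genes (27.8%) against 2.36% of windows of all tested genes. It was present in 2.74% of windows of genes called higher and in 2.32% of those of genes called lower. The list was drawn up for its link to ATF4, so its own share cannot bear on the changes seen here. These are matches of letters and no measure of binding. The windows below are shown because they belong to 3 genes that rose in every mutant library; capitals mark the motif matches, an ATF4-type match for Asns (chr6:7693160-7693459, minus strand) and E2F-type matches for Mcm3 (chr1:20820263-20820562, minus strand, 2 matches) and Uhrf1 (chr17:56304063-56304362, plus strand).
Asns: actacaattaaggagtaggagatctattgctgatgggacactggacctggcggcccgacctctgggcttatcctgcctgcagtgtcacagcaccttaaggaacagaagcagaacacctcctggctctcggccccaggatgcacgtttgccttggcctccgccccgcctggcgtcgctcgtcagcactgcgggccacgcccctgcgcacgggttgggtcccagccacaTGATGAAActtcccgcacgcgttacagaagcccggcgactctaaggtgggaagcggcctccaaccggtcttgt
Mcm3: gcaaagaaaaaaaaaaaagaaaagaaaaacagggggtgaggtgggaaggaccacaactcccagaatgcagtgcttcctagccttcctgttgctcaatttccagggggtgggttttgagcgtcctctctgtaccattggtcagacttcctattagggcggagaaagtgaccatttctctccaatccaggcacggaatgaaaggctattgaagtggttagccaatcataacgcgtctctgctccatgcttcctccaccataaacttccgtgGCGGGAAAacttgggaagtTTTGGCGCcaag
Uhrf1: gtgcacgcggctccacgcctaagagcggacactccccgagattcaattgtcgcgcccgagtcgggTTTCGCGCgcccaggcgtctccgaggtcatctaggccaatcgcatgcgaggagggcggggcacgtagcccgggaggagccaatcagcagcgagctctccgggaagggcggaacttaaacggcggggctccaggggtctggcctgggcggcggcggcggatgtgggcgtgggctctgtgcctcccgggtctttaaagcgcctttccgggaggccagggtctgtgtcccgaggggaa
No E2F-type match was found in the window of E2f1, and no ATF4-type match in those of Psat1, Phgdh or Cdkn1a.

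Mitosis genes moved with the replication genes. Of 61 genes of spindle, kinetochore and chromosome segregation, 58 rose and 1 fell, with the same counts without mutant library 1 and a median log2 fold change of 1.64 (1.39 without it). Espl1, the protease separase that releases sister chromatids, stood at 11.5, 10.3 and 10.4 CPM in WT, against 52.2, 31.3 and 31.2 CPM in mutants, a rise of 1.84 ± 0.19 (adjusted p = 0.000113). Top2a, the topoisomerase that untangles sister DNA, stood at 184, 182 and 126 CPM in WT, against 744, 454 and 477 CPM in mutants. Its rise was 1.76 ± 0.22 (adjusted p = 0.000273). Ncapd2 of condensin rose by 1.18 ± 0.13 and Ncapg2 by 1.69 ± 0.22. The exception was Smc4, a core subunit of both condensins, which fell by 0.58 ± 0.09 (adjusted p = 0.000615), from 1182, 1123 and 1131 CPM in WT to 726, 739 and 840 CPM in mutants. Its partner Smc2 rose by 1.06 ± 0.19.

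Genes of homologous recombination and the Fanconi pathway, which mend broken and crosslinked DNA, rose in 29 of 37 cases (78.4%). The 1 that fell (2.7%) was Atm (-0.32 ± 0.08). The shares over all genes were 19.3% higher and 15.6% lower. Without mutant library 1 the counts were 27 and 1. Fanca rose by 1.39 ± 0.13 (adjusted p = 7.82e-05), Exo1 by 1.53 ± 0.18 and Rad51ap1 by 1.53 ± 0.19. Among 38 enzymes of purine and pyrimidine synthesis 27 rose (71.1%) and 2 fell (5.26%), with 24 and 2 without mutant library 1. Rrm2, the small subunit of ribonucleotide reductase that supplies deoxynucleotides, stood at 58.3, 54.2 and 40.4 CPM in WT, against 319, 126 and 128 CPM in mutants. Its rise of 1.91 ± 0.31 (adjusted p = 0.000916) dropped to 1.35 without mutant library 1. Tyms and Tk1, which make and salvage thymidylate, rose by 1.35 ± 0.17 and 1.37 ± 0.16. The 2 genes that fell were Ctps2 (-0.47) and Samhd1, which destroys deoxynucleotides and stood at 1168, 1103 and 1080 CPM in WT, against 801, 698 and 857 CPM in mutants (-0.51 ± 0.12, adjusted p = 0.00785). Replication-dependent histone genes did not share the pattern: of 26 tested 1 rose (Hist1h1b, 1.24) and 2 fell (Hist2h3c1, -1.76, and Hist3h2ba, -0.82), but their transcripts lack a poly(A) tail and the libraries were made from poly(A) RNA. The call of Hist3h2ba was lost under 8 alternatives, among them leaving out mutant library 1, and that of Hist1h1b was lost in 3 of the fits that left out a different library.

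The inhibitors of cyclin-dependent kinases went in opposite directions. Cdkn1a (ENSMUSG00000023067, chromosome 17, 29090979 to 29100722, plus strand), which encodes p21, stood at 1.90, 2.36 and 2.14 CPM in WT, against 29.5, 18.3 and 19.6 CPM in mutants. Its log2 fold change of 3.39 ± 0.27 (adjusted p = 5.03e-05) was 3.17 without mutant library 1. Cdkn1b, which encodes p27 and marks quiescent T cells, stood at 257, 270 and 263 CPM in WT, against 134, 147 and 158 CPM in mutants. It fell by 0.85 ± 0.08 (adjusted p = 0.000101), and the groups of neither gene overlapped. E2f1, a transcription factor of the entry into S phase, stood at 5.36, 5.69 and 4.43 CPM in WT, against 16.4, 13.3 and 11.6 CPM in mutants and rose by 1.41 ± 0.13 (adjusted p = 9.09e-05). Of the 28 genes of this group 15 rose (53.6%) and 2 fell (7.14%), against 19.3% and 15.6% over all genes. The second that fell was Rb1 (-0.44 ± 0.11). Without mutant library 1 the counts were 13 and 2. Psrc1, a spindle protein, had a similar pattern, at 2.51, 2.59 and 1.89 CPM in WT and 12.1, 13.8 and 14.5 CPM in mutants, a rise of 2.54 ± 0.22 (adjusted p = 6.36e-05).

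Genes linked to ATF4, the transcription factor of the response to amino acid shortage, rose in 19 of 34 cases (55.9%) and fell in 1 (2.94%). The shares over all genes were 19.3% and 15.6%. The 1 that fell was Ddit3 (-0.39), a call lost without any library other than mutant library 2. Without mutant library 1, 22 rose and 0 fell. Asns (ENSMUSG00000029752, chromosome 6, 7675169 to 7693254, minus strand), which makes asparagine, stood at 2.51, 2.69 and 1.61 CPM in WT, against 21.5, 17.7 and 18.6 CPM in mutants. Its log2 fold change was 3.09 ± 0.16 (adjusted p = 2.07e-06) and 3.03 without mutant library 1, so this rise did not rest on that library. Atf4 itself stood at 83.0, 83.1 and 85.2 CPM in WT, against 110, 97.3 and 78.6 CPM in mutants, with overlap (log2 fold change 0.19 ± 0.11, adjusted p = 0.213). Stc2, a secreted glycoprotein induced in stress, stood at 0.848, 1.28 and 0.713 CPM in WT, against 3.29, 3.58 and 3.92 CPM in mutants (1.93 ± 0.26, adjusted p = 0.000363).

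Of 20 cytosolic aminoacyl-tRNA synthetases 16 rose and 0 fell (15 and 0 without mutant library 1), with a median of 0.36. Aars, for alanine, stood at 59.5, 59.2 and 57.5 CPM in WT, against 119, 87.4 and 88 CPM in mutants (0.74 ± 0.11, adjusted p = 0.000631). Gars, for glycine, rose by 0.79 ± 0.15 and Wars, for tryptophan, by 0.52 ± 0.09. Of 17 mitochondrial synthetases, read against 19.3% higher and 15.6% lower over all genes, 2 rose (11.8%), among them Sars2 (0.76 ± 0.11), and 4 fell (23.5%), Ears2 (-0.72 ± 0.10), Tars2 (-0.58 ± 0.08), Mars2 (-0.39) and Hars2 (-0.27). Without mutant library 1 the mitochondrial counts were again 2 and 4. The count of cytosolic enzymes that rose was 10 when WT library 3 was left out. The count of mitochondrial enzymes that rose was 6 with library size alone, 4 with a minimum of 1 CPM in 3 libraries and 1 without WT library 2. No test compared the 2 lists.

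Of 28 amino acid transporters 8 rose (28.6%) and 4 fell (14.3%), against 19.3% and 15.6% over all genes (11 and 3 without mutant library 1, and 1 lower without WT library 2). Slc1a4, a carrier of serine, alanine and cysteine, stood at 1.09, 0.943 and 0.992 CPM in WT, against 2.62, 4.13 and 4.62 CPM in mutants. Here mutant library 1 was the lowest of the mutants, and the rise was 1.91 ± 0.24 (adjusted p = 0.000273) and 2.14 without that library. Slc7a5, the light chain of the transporter of large neutral amino acids, rose by 1.11 ± 0.15 (adjusted p = 0.000343), and Slc43a3, a carrier of purine bases, by 1.46 ± 0.14 (adjusted p = 9.4e-05). The glutathione and thioredoxin list had 22 of 51 genes higher (43.1%) and 5 lower (9.8%), among them Gclc itself. Without mutant library 1 the counts were 23 and 4. Txn1, thioredoxin, stood at 52.6, 52.6 and 47.1 CPM in WT, against 160, 97.8 and 98.3 CPM in mutants (1.23 ± 0.16, adjusted p = 0.000328). Sod1, the cytosolic superoxide dismutase, rose by 0.58 ± 0.07 (adjusted p = 0.000294). In this list 14 rose and 3 fell without WT library 1.

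Protein turnover and synthesis genes rose by small amounts. Of 44 proteasome genes 34 rose and 0 fell (32 and 0 without mutant library 1; median 0.39 and 0.25). Psmb2, of the core particle, stood at 48.7, 42.2 and 41.5 CPM in WT, against 81.6, 56.3 and 59.0 CPM in mutants (0.57 ± 0.12, adjusted p = 0.00388), and Psmd14, of the lid, at 74.3, 76.5 and 73.1 against 122, 88.6 and 96.3 CPM (0.46 ± 0.10, adjusted p = 0.00403). In both genes mutant library 1 stood well above the other mutants. The number of proteasome genes higher was 19 when the nTreg libraries were fitted alone and 20 to 21 when any WT library was left out. Mitochondrial ribosomal proteins rose in 35 of 78 cases and fell in 1, Mrpl24 (-0.29); the counts were 26 and 1 without mutant library 1, 22 higher without WT library 2, 23 without WT library 3 and 19 with the nTreg libraries alone. Translation factors rose in 21 of 47 cases (20 without mutant library 1) and fell in 2, Eif4a2 (-0.37 ± 0.07) and Eif4ebp2 (-0.31, lost without mutant library 1 or WT library 1). Eif5a, which relieves stalled ribosomes, rose by 0.63 ± 0.11 (adjusted p = 0.00115). The number of translation factors that rose was 8 with the nTreg libraries alone and 10 to 12 without a WT library. Cytosolic ribosomal proteins, by contrast, had 8 of 80 genes higher and 8 lower, both below the share over all genes. Without mutant library 1 the counts were 8 and 7. The 8 higher became 3 or 4 without mutant library 4 or WT library 1 or 2, and the 8 lower became 5 without WT library 1.

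Chaperones and splicing factors split within their lists. Of 44 chaperones 13 rose (29.5%) and 4 fell (9.09%), with 10 and 4 without mutant library 1. The shares over all genes were 19.3% and 15.6%. The 4 that fell were Hsph1 (-0.86 ± 0.24, lost without WT library 1), Dnaja1 (-0.77 ± 0.14), Dnajb1 (-0.64 ± 0.10) and Dnajc7 (-0.29 ± 0.05), which work with the HSP70 and HSP90 machines. Dnaja1 stood at 409, 331 and 305 CPM in WT, against 175, 179 and 258 CPM in mutants, without overlap. The numbers of chaperones that rose and fell were both 7 without WT library 3, 7 fell without mutant library 4, and 7 rose with the nTreg libraries alone. Of 71 splicing factors 23 rose (32.4%) and 14 fell (19.7%), with 22 and 12 without mutant library 1. Lsm2, of the ring that binds U6 RNA, rose by 0.62 ± 0.11 (adjusted p = 0.0014) and Snrpd1, of the Sm ring, by 0.81 ± 0.16. Ddx5, an abundant RNA helicase, stood at 2389, 2314 and 2323 CPM in WT, against 1593, 1612 and 1824 CPM in mutants (-0.48 ± 0.08, adjusted p = 0.00107). Snrnp70 of the U1 particle fell by 0.38 ± 0.06 (adjusted p = 0.000616) and Clk1, a kinase of SR proteins, by 0.54 ± 0.10. The splicing count was 15 higher without WT library 2.

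More nutrient-sensing genes fell than rose. Of 57 genes of mTORC1 and its upstream brakes 22 fell (38.6%) and 5 rose (8.77%), against 15.6% lower and 19.3% higher over all genes. The median was -0.11. Without mutant library 1 the counts were 18 and 5. Sesn1 (ENSMUSG00000038332, chromosome 10, 41809935 to 41908424, plus strand), the leucine-sensing family member that restrains mTORC1 and is a known FOXO target, stood at 188, 195 and 195 CPM in WT, against 43.9, 73.1 and 78.8 CPM in mutants. It fell by 1.56 ± 0.17 (adjusted p = 0.000144) and by 1.31 without mutant library 1. Foxo1 stood at 294, 299 and 321 CPM in WT, against 152, 180 and 194 CPM in mutants (-0.80 ± 0.09, adjusted p = 0.000171). Foxo3 fell by 0.59 ± 0.15, and by 0.35 without mutant library 1, and Foxo4 by 0.71 ± 0.10. In each of these 4 genes mutant library 1 was the lowest, and mutants and WT did not overlap. Rictor, the defining subunit of mTORC2, fell by 0.56 ± 0.07 (adjusted p = 0.000309). The 5 that rose were Ddit4l (4.81), Tbc1d7 (0.97), Fnip2 (0.92), Phlpp2 (0.73) and Akt1 (0.59). Ddit4l, at 5.07 without mutant library 1, was a low gene. It was not tested with a minimum of 1 CPM in 3 libraries or with the nTreg libraries alone. A FOXO-type motif (GTAAACA, both strands) was present in 4.92% of the 61 windows of this list, in 2.57% of windows of tested genes and in 2.72% of those of genes called lower.

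T cell receptor signalling genes mostly fell when they moved: 26 of 71 fell and 3 rose (25 and 4 without mutant library 1, and 5 higher without mutant library 2), against 15.6% lower over all genes. Cbl, a ubiquitin ligase that ends receptor signals, stood at 735, 685 and 653 CPM in WT, against 367, 435 and 478 CPM in mutants (-0.70 ± 0.10, adjusted p = 0.000443). Cblb, of the same family, fell by 0.40 ± 0.06 (adjusted p = 0.000753), Carmil2, which links CD28 to actin, by 0.45 ± 0.07, and Rasgrp1, an activator of RAS, by 0.45 ± 0.11. The 3 that rose were Themis (0.82 ± 0.20, and 0.44 without mutant library 1), Relb (0.57) and Zap70 (0.30 ± 0.08). Brakes and activators of the receptor were thus both among the genes that fell.

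In the list of interleukin 2 and common gamma chain signalling 6 of 27 genes rose and 6 fell, 22.2% each against 19.3% and 15.6% over all genes (7 and 6 without mutant library 1; 10 higher with library size alone). Il7r, the receptor chain for interleukin 7, stood at 523, 405 and 295 CPM in WT, against 181, 279 and 248 CPM in mutants (-0.79 ± 0.21, adjusted p = 0.0116). Its lowest WT library lay close to its highest mutant library, and the call was lost without WT library 1 (-0.57, adjusted p = 0.0596). Jak1, the kinase on these receptors, stood at 894, 829 and 869 CPM in WT, against 590, 557 and 620 CPM in mutants (-0.55 ± 0.07, adjusted p = 0.000307). Cish, a feedback inhibitor, rose by 0.49 ± 0.10 (adjusted p = 0.00268) and by 0.62 without mutant library 1. Il2ra, the high-affinity chain of the interleukin 2 receptor, stood at 826, 797 and 734 CPM in WT, against 685, 691 and 715 CPM in mutants and did not pass (-0.17 ± 0.07, adjusted p = 0.0774). Of 8 GIMAP GTPases, which support lymphocyte survival, 5 fell and 0 rose, with and without mutant library 1. Gimap9 stood at 152, 150 and 147 CPM in WT, against 110, 96.2 and 105 CPM in mutants (-0.53 ± 0.09, adjusted p = 0.00134).

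Cell death genes moved in both directions. Of 34 BCL2 family and caspase genes 13 rose (38.2%) and 7 fell (20.6%), against 19.3% and 15.6% over all genes. Without mutant library 1 the counts were 13 and 5, and 4 fell without WT library 1 or 2. Casp4 (chromosome 9, 5308828 to 5336783, plus strand), the caspase that senses cytosolic lipopolysaccharide, stood at 20.8, 23.8 and 22.6 CPM in WT, against 66.2, 57.0 and 59.3 CPM in mutants. Its rise of 1.44 ± 0.11 (adjusted p = 5.03e-05) was 1.40 without mutant library 1. Casp1, which matures interleukin 1 beta, rose by 1.41 ± 0.16 (adjusted p = 0.00019). Mcl1, a protein that protects Tregs from death, stood at 689, 688 and 659 CPM in WT, against 424, 447 and 527 CPM in mutants (-0.54 ± 0.08, adjusted p = 0.000644). Bcl2l11, which encodes the death-promoting BIM, also fell (-0.80 ± 0.14). A protective and a death-promoting gene were thus both among those that fell.

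Lineage transcription factors moved in both directions. In this list 15 of 61 genes rose (24.6%) and 21 fell (34.4%), with 18 and 18 without mutant library 1. The shares over all genes were 19.3% and 15.6%. Klf3, a repressor of the Kruppel-like family, stood at 287, 274 and 261 CPM in WT, against 103, 127 and 134 CPM in mutants (-1.18 ± 0.12, adjusted p = 9.4e-05). Klf7 fell by 0.82 ± 0.09 and Klf13 by 0.65 ± 0.09. Bach2, Satb1 and Lef1, factors of resting or early T cells, fell by 0.87 ± 0.14, 0.87 ± 0.14 and 0.64 ± 0.10. Satb1 went from 317, 261 and 287 CPM in WT to 202, 123 and 149 CPM in mutants. Bhlhe40, a repressor that supports cytokine production, stood at 26.3, 30.5 and 27.9 CPM in WT, against 204, 76.9 and 83.2 CPM in mutants (2.10 ± 0.32, adjusted p = 0.000688; 1.53 without mutant library 1). Tbx21, of the type 1 helper and cytotoxic programme, stood at 6.14, 5.39 and 3.72 against 64.6, 11.4 and 10.2 CPM, a rise of 2.49 that was 1.12 without mutant library 1. Zfp36, which destabilises cytokine messages, fell by 0.92 ± 0.11 (adjusted p = 0.000193).

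Secreted molecules and their receptors moved in both directions, and those named here, several ligands and a decoy receptor, all rose. Of 44 helper cytokines and receptors 14 rose (31.8%) and 10 fell (22.7%), against 19.3% and 15.6% over all genes. Without mutant library 1 the counts were 15 and 10, and 9 rose without WT library 3. Lif, an interleukin 6 family cytokine, stood at 6.14, 5.79 and 4.56 CPM in WT, against 23.8, 21.8 and 20.9 CPM in mutants (2.01 ± 0.17, adjusted p = 5.46e-05). Il1r2, the decoy receptor for interleukin 1, stood at 12.9, 15.9 and 13.5 CPM in WT, against 80.1, 71.8 and 70.5 CPM in mutants (2.40 ± 0.34, adjusted p = 0.000447). Il21, a helper cytokine, stood at 1.29, 1.99 and 0.589 CPM in WT, against 8.06, 6.75 and 6.54 CPM in mutants (2.47 ± 0.33). All 3 genes had mutant libraries close to each other and far from WT. In the tumour necrosis factor list 9 of 35 genes rose (25.7%) and 3 fell (8.57%). The counts were 7 and 2 without mutant library 1, with 5 higher without WT library 1 or 3 and 5 lower without mutant library 4. Tnfsf13b, the B cell survival factor BAFF, stood at 0.543, 0.707 and 0.837 CPM in WT, against 4.65, 4.15 and 4.68 CPM in mutants (2.68 ± 0.28, adjusted p = 0.000124). Tnfsf4, the ligand of OX40, rose by 2.46 ± 0.30 (adjusted p = 0.000237).

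Of 38 costimulatory and checkpoint receptors 6 rose (15.8%) and 8 fell (21.1%), against 19.3% and 15.6% over all genes. Without mutant library 1 the counts were again 6 and 8. Cd27, a costimulatory receptor, stood at 232, 223 and 236 CPM in WT, against 127, 142 and 159 CPM in mutants (-0.69 ± 0.11, adjusted p = 0.000685), and Vsir, the checkpoint VISTA, fell by 0.61 ± 0.10 (adjusted p = 0.000835). Lag3, an inhibitory receptor, rose by 0.88 ± 0.15 (adjusted p = 0.00125). The number higher was 2 without WT library 3 and 3 without WT library 1 or 2. Ctla4, the inhibitory receptor through which Tregs act on dendritic cells, stood at 352, 341 and 292 CPM in WT, against 234, 296 and 351 CPM in mutants, with overlap (-0.16 ± 0.13, adjusted p = 0.364). Of 37 chemokine and homing genes 9 rose and 9 fell, 24.3% each against 19.3% and 15.6% over all genes. Without mutant library 1, 10 of 38 rose and 8 fell. Gpr174, a receptor for lysophosphatidylserine, fell by 0.58 ± 0.08 (adjusted p = 0.00044). Ccr3, of the eotaxins, stood at 7.64, 8.99 and 5.36 CPM in WT, against 0.474, 2.17 and 1.25 CPM in mutants (-2.46 ± 0.41, adjusted p = 0.00151). Ccl5, a chemokine for effector cells, rose by 1.22 ± 0.17 (adjusted p = 0.00069).

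Some adhesion and cytoskeletal genes rose and others fell. Itga6, the laminin receptor chain, stood at 305, 277 and 287 CPM in WT, against 113, 134 and 178 CPM in mutants (-1.03 ± 0.20, adjusted p = 0.00224). Itgb3 fell by 0.73 ± 0.12 and Itgb1, the shared beta chain of many integrins, rose by 0.58 ± 0.11, with mutant library 1 the lowest of the mutants at 370 CPM. In that list 4 of 34 genes rose (11.8%) and 9 fell (26.5%), against 19.3% and 15.6% over all genes. Without mutant library 1 the counts were 5 and 8. The median of the list, -0.04, became 0.00 with library size alone. Of 60 actin cytoskeleton genes 14 rose (23.3%) and 4 fell (6.67%), with the same counts without mutant library 1. The 14 became 24 with library size alone and 7 to 9 with the nTreg libraries alone or without a WT library. Vim, the intermediate filament vimentin, stood at 295, 297 and 252 CPM in WT, against 732, 576 and 542 CPM in mutants (1.13 ± 0.13, adjusted p = 0.000181). Rhoh, a haematopoietic small GTPase, fell by 0.81 ± 0.10 (adjusted p = 0.000296). In the TGF-beta list 10 of 33 genes fell (30.3%) and 3 rose (9.09%), with 8 and 5 without mutant library 1. Smad4, the shared SMAD, fell by 0.45 ± 0.07 (adjusted p = 0.000586) and Acvr1, a type I receptor, rose by 1.02 ± 0.15 (adjusted p = 0.000608).

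**Figure D3:**
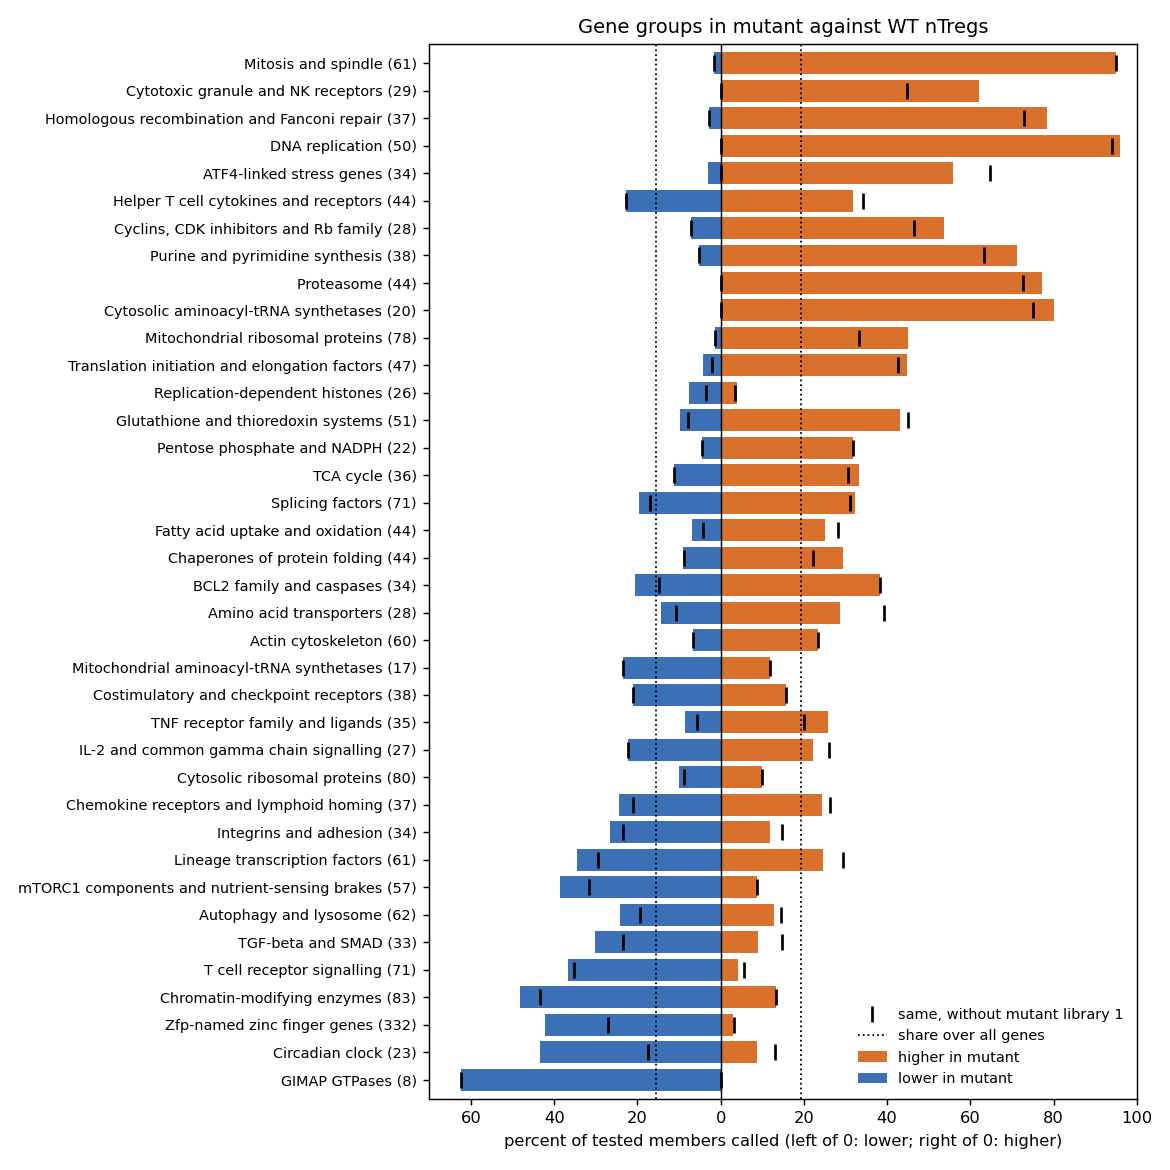
For each of 38 gene groups (number tested in brackets), the bars give the percent of members called lower (left) and higher (right) in mutant nTregs, ticks the same without mutant library 1, and dotted lines the shares over all genes, 15.6% and 19.3%. Replication and mitosis genes reach the highest shares on the right, and the 8 GIMAP genes, chromatin enzymes, Zfp genes and clock genes the highest on the left; the clock share on the left drops without mutant library 1.

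Genes of fuel use moved in both directions. Of 36 genes of the tricarboxylic acid cycle 12 rose (33.3%) and 4 fell (11.1%), with 11 and 4 without mutant library 1. The shares over all genes were 19.3% and 15.6%. The 4 that fell were Pdk1 (-0.77 ± 0.11), Pdp1 (-0.41), Pdp2 (-0.37) and Pdpr (-0.28), which set the phosphorylation of pyruvate dehydrogenase. Pdk1 stood at 113, 113 and 124 CPM in WT, against 67.4, 65.6 and 71.9 CPM in mutants, while Pdk3, of the same kinase family, rose by 0.52 ± 0.10. Idh2, which makes mitochondrial NADPH, stood at 14.5, 14.0 and 15.8 CPM in WT, against 18.8, 27.5 and 22.8 CPM in mutants (0.65 ± 0.13, adjusted p = 0.00265). Among 44 fatty acid genes 11 rose and 3 fell. Fabp5, a fatty acid carrier, stood at 15.4, 19.3 and 16.7 CPM in WT, against 55.9, 42.5 and 42.8 CPM in mutants (1.46 ± 0.14, adjusted p = 9.4e-05), and Etfb, which passes electrons from fatty acid oxidation, rose by 0.91 ± 0.13. The fatty acid counts were 7 higher without mutant library 2 or WT library 3, and 6 and 7 lower without mutant library 2 or 4. Of 22 pentose phosphate and NADPH genes 7 rose (31.8%) and 1 fell (4.55%), with the same counts without mutant library 1. Tkt, transketolase, rose by 0.61 ± 0.11. Of 62 autophagy and lysosome genes 15 fell (24.2%) and 8 rose (12.9%), with 12 and 9 without mutant library 1. Rb1cc1, the scaffold that starts autophagosomes, fell by 0.59 ± 0.10 and Lipa, lysosomal acid lipase, by 0.51 ± 0.08. The 8 became 4 or 5 without mutant library 2 or WT library 1 or 2.

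Enzymes that modify chromatin, which are long genes, mostly fell when they moved. Of 83 tested 40 fell and 11 rose (36 and 11 without mutant library 1), with a median of -0.22. Kmt2a, a histone H3 lysine 4 methyltransferase, stood at 956, 859 and 836 CPM in WT, against 455, 525 and 610 CPM in mutants (-0.74 ± 0.12, adjusted p = 0.000833). Nsd1, of the lysine 36 methyltransferases, stood at 491, 477 and 457 CPM in WT, against 329, 341 and 361 CPM in mutants (-0.47 ± 0.06, adjusted p = 0.000272). Nsd2, of the same family, went the other way, from 107, 106 and 87.2 CPM to 257, 191 and 195 CPM (1.10 ± 0.14). Ezh2, the lysine 27 methyltransferase of dividing cells, rose by 0.89 ± 0.10 (adjusted p = 0.000198). The median exon length of this list was 8158 bases, within the longest length class, in which 32.4% of genes fell.

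Zinc finger genes named Zfp fell in 140 of 332 cases (42.2%) and rose in 10 (3.01%), against 15.6% lower and 19.3% higher over all genes. Without mutant library 1 the counts were 90 and 11, without WT library 2 the number lower was 85, and the number higher was 5 or 6 without any 1 of the WT libraries. Zfp658 stood at 13.4, 13.5 and 12.4 CPM in WT, against 6.61, 7.30 and 7.45 CPM in mutants (-0.88 ± 0.10, adjusted p = 0.000162), and Zfp169 fell by 0.60 ± 0.08. These are small changes in a large family of poorly known transcription factors. Of 23 circadian clock genes 10 fell and 2 rose, Bhlhe40 and Npas2 (1.61 ± 0.25). The clock count was 4 lower and 3 higher without mutant library 1, 5 lower without WT library 2 or with library size alone, and 6 lower with the nTreg libraries alone.

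The exon length of a gene ran with the direction of its change. In 5 classes of 2590 protein-coding genes by exon length, from the shortest (204 to 2216 bases) to the longest (6968 to 123179 bases), 26.9%, 23.7%, 20.1%, 19.3% and 14.6% of genes were higher and 7.61%, 12.5%, 17.8%, 22.2% and 32.4% lower. The median log2 fold change went from 0.18 to -0.10, and from 0.17 to -0.06 without mutant library 1. In iTregs the medians of the same classes went from 0.07 to 0.02. Of genes with a WT mean of 100 CPM or more 36.6% were lower and 12.1% higher, and of those under 1 CPM 2.74% were lower and 15.8% higher. The WT mean that sets these classes is also part of the fold change. A gene low in WT may have passed the filter only through another group. These shares therefore cannot show a link between abundance and direction. Processed pseudogenes, whose reads also align to their parent genes, were higher in 24.1% and lower in 4.39% of 2326 cases. The proteasome list, with a median exon length of 2488.5 bases, and the Zfp list, with 4114.5 bases, had 77.3% higher and 42.2% lower members. In the length classes that hold those medians, the second and the third, the shares were 23.7% higher and 17.8% lower. The part of length in any list's count was not tested.

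**Figure D4:**
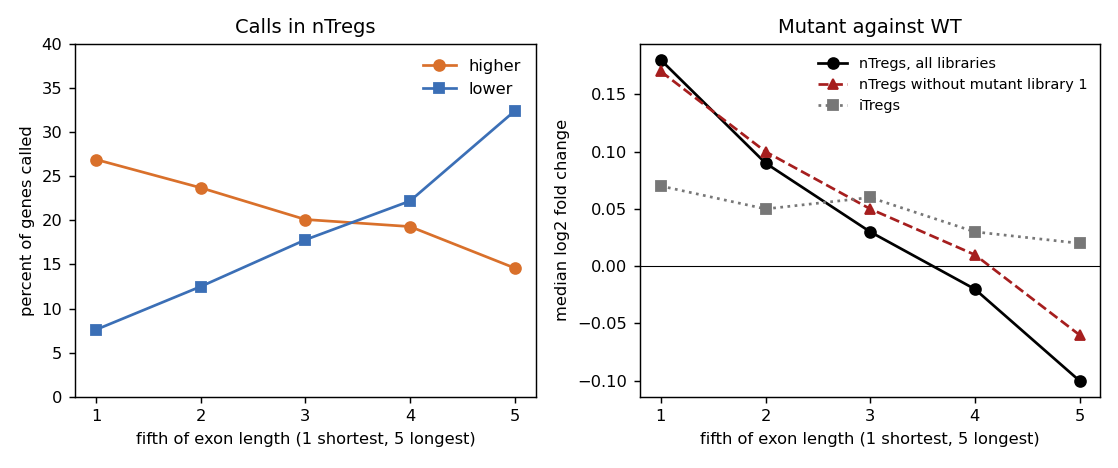
Left, the percent of protein-coding genes called higher or lower in mutant nTregs in 5 classes of exon length (1 shortest, 5 longest); right, the median log2 fold change of the same classes in nTregs, in nTregs without mutant library 1 and in iTregs. The share of lower genes climbs from 7.61% to 32.4% while that of higher genes drops from 26.9% to 14.6%, and the median moves across 0 in nTregs with and without mutant library 1 but stays above it in iTregs.

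Genes near Gclc did not share a direction. Of 52 tested genes within 5 Mb of Gclc on chromosome 9, 13 were higher and 10 lower (12 and 10 without mutant library 1), against 19.3% and 15.6% over all genes. The largest change there by log2 fold change was that of Cd109, a surface protein anchored by a lipid, at a mean of 0.466 CPM in WT and 3.21 CPM in mutants (2.79, adjusted p = 0.000242; 2.60 without mutant library 1). Gsta4, a glutathione transferase that detoxifies lipid aldehydes, fell by 0.89 (adjusted p = 0.0116). Elovl5, an enzyme that elongates polyunsaturated fatty acids, fell by 0.56 from a mean of 210 to 143 CPM.

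Cytotoxic genes rose, and their size depended on mutant library 1. Of 29 genes of cytotoxic granules and NK receptors 18 rose (62.1%) and 0 fell, against 19.3% and 15.6% over all genes. Their median log2 fold change was 1.5. Without mutant library 1, 13 rose and the median was 0.58. Without WT library 3, 10 rose. Gzmk, a granzyme, stood at 0.407, 0.202 and 0.093 CPM in WT, against 81.8, 6.91 and 9.77 CPM in mutants. Its log2 fold change was 7.13 ± 1.26 and 5.18 without mutant library 1 (adjusted p = 6.34e-05). Gzmb stood at 14.3, 16.4 and 9.36 CPM in WT, against 585, 56.0 and 37.2 CPM in mutants (4.08 ± 0.90, and 1.84 without mutant library 1). Nkg7, a granule membrane protein, stood at 14.5, 13.5 and 10.9 CPM in WT, against 191, 40.9 and 37.9 CPM in mutants (2.79 ± 0.51, and 1.64 without it). Cd8a, which defines CD8 T cells, stood at 3.70, 4.38 and 6.36 CPM in WT, against 219, 19.1 and 27.2 CPM in mutants (4.19 ± 0.78, and 2.29 without it). All 3 mutant libraries thus lay above WT in these 4 genes, by very different amounts. The part of CD8 T or NK cells in these values was not tested.

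The calls that ended without mutant library 1 were led by genes of the same kind. Ifng, the type 1 cytokine interferon gamma, stood at 3.56, 2.73 and 2.11 CPM in WT, against 72.8, 5.61 and 4.35 CPM in mutants (3.30 ± 0.90, adjusted p = 0.0137; 0.87 without mutant library 1, adjusted p = 0.11). Prf1, perforin, stood at 4.07, 3.40 and 3.16 against 45.3, 3.63 and 3.89 CPM (2.30, and 0.11 without it, adjusted p = 0.742). For Prf1 the other mutant libraries lay within or beside the WT range. Klrc2 and Klrd1, which form an NK receptor, and Galnt3, a glycosyltransferase, went from 2.54, 2.5 and 2.39 to 0.66, 0.84 and 0.69.

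Beyond the lists, the largest changes that held without mutant library 1 included other secreted and surface molecules. Ifitm1, an interferon-induced membrane protein, stood at 0.441, 0.640 and 0.527 CPM in WT, against 13, 4.22 and 3.29 CPM in mutants (3.66 ± 0.51, and 2.83 without mutant library 1). Ccl1, the chemokine for CCR8, stood at 0.882, 0.977 and 0.961 CPM in WT, against 4.65, 8.10 and 3.13 CPM in mutants (2.5 ± 0.56). Esm1, a secreted proteoglycan, rose by 5.55 ± 1.20, and by 3.64 without mutant library 1. Slc4a1, the anion exchanger of red cells, stood at 0.339, 1.25 and 0.682 against 5.85, 20.7 and 1.83 CPM, and the erythroid markers were likewise highest in mutant library 2 at 884 CPM; the part of red cells in it was not tested. On the falling side were F13a1, a transglutaminase of clotting, at 5.90, 8.25 and 12.1 against 0.379, 1.46 and 1.10 CPM (-3.12 ± 0.38), and Sp6, a zinc finger factor, at 35, 36.3 and 38.9 against 3.29, 8.88 and 8.24 CPM (-2.42 ± 0.40). Camk2n1, an inhibitor of CaMKII, fell by 1.85 ± 0.19 and Ksr2, a scaffold of the MAP kinase cascade, by 1.69 ± 0.20. Mapk12, a p38 kinase, fell by 1.84 ± 0.28 and Col11a2, a collagen chain, by 1.75 ± 0.21. Fbxl22, Tnnt2 and Dnah17 fell by 2.02, 1.57 and 1.62, and the long noncoding RNA Miat by 1.16, a call lost under 3 alternatives.

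Among genes of at least 100 CPM in a group, further rises were those of Ccna2, a cyclin of S phase and mitosis, from 46.1, 45.2 and 28.9 to 218, 103 and 113 CPM (1.85 ± 0.28), Il18rap, of the interleukin 18 receptor, from 30.2, 37.9 and 27.4 to 203, 91.3 and 57.7 CPM (1.88 ± 0.40), and Serpinb9, the granzyme B inhibitor (1.82 ± 0.47, and 0.71 without mutant library 1). Further falls were those of Ifi213, an interferon-inducible nuclear protein, from 206, 195 and 189 to 95.8, 79.3 and 88.6 CPM (-1.16 ± 0.08, adjusted p = 2.53e-05), Gprasp1, a receptor sorting protein (-1.14 ± 0.15), Art2b, an ADP-ribosyltransferase of T cells (-1.1 ± 0.22), and St8sia6, a sialyltransferase (-1.05 ± 0.23). Ifi213 was even between mutant libraries, whereas St8sia6 stood at 41.1, 78.5 and 104 CPM in them.

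**Figure D5:**
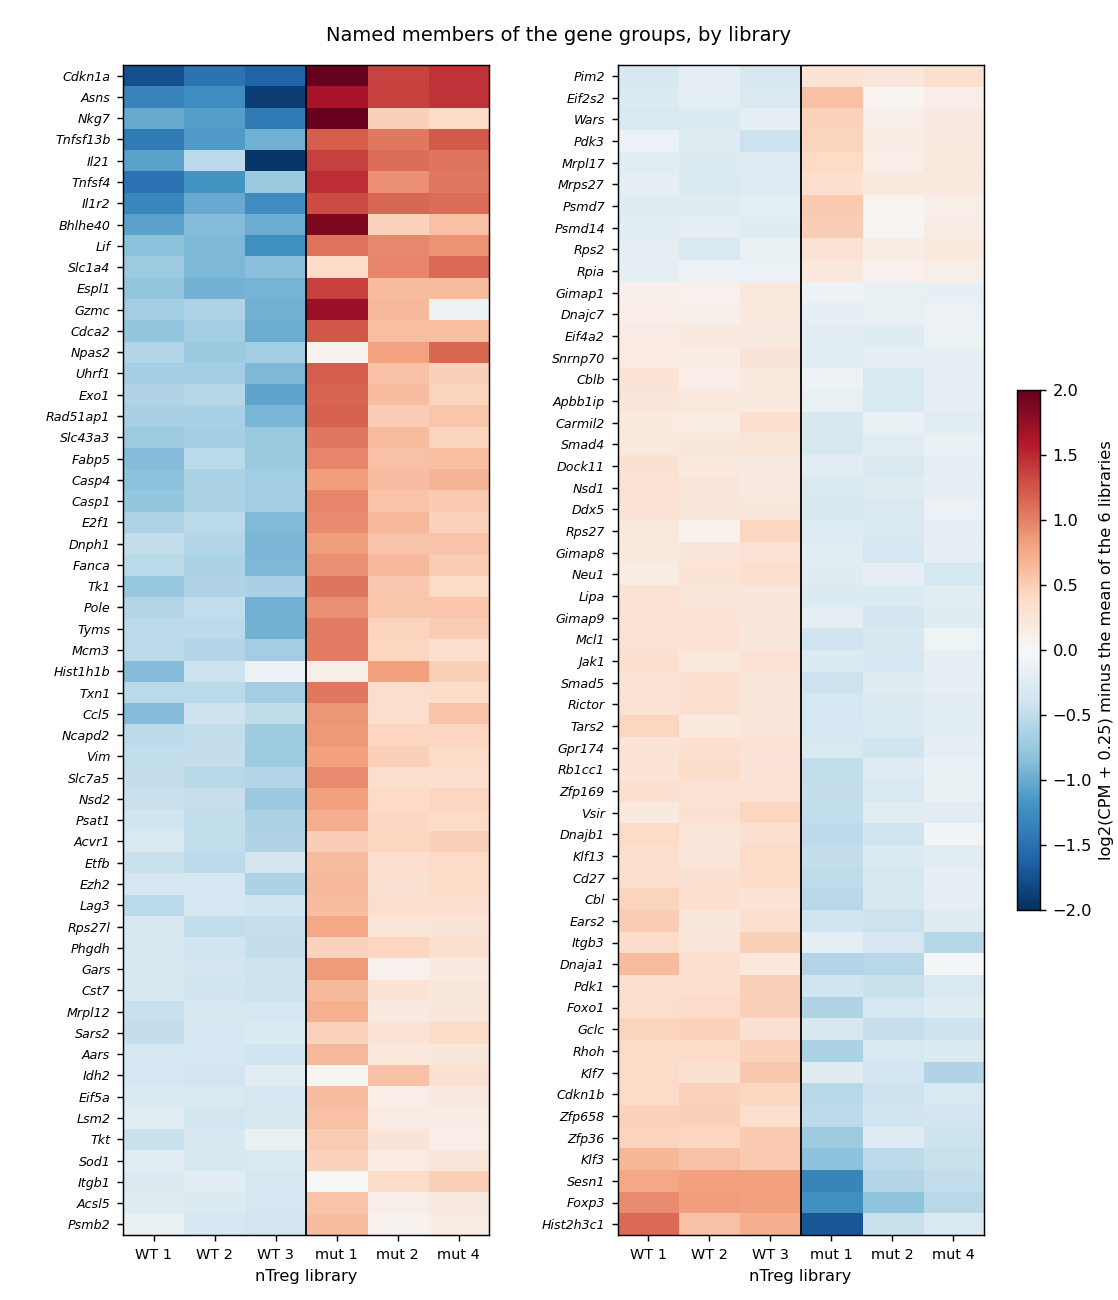
Each row is a gene chosen from a list by the naming rule, ordered by log2 fold change from the top of the left panel to the bottom of the right one, and each column an nTreg library; colour gives log2(CPM + 0.25) minus the mean of the 6 libraries. Mutant libraries 2 and 4 take the same side as mutant library 1 in most rows with paler colours, and Slc1a4, Npas2 and Itgb1 are paler in mutant library 1.

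The effect of the genotype was set against that in iTregs by a test of the difference itself, over the same fit. For 2392 genes (13.3%) the effects differed, with the nTreg effect above the iTreg effect for 1291 (7.18%) and below it for 1101 (6.12%). The difference was above 0 for 29 of 50 replication genes, 27 of 61 mitosis genes and 16 of 34 ATF4-linked genes, and below 0 for 0, 1 and 0 of them. In iTregs 43 of the 61 mitosis genes rose and 5 of the 50 replication genes, against 14.0% higher over all genes. Asns rose by 3.09 in nTregs and 0.55 in iTregs (difference 2.53, adjusted p = 0.000292), and Cdkn1a by 3.39 and 0.67 (difference 2.72, adjusted p = 0.00171). E2f1 rose by 1.41 in nTregs and was at -0.26 in iTregs without passing (difference 1.67, adjusted p = 0.00156). Foxo1 fell by 0.80 in nTregs against -0.01 in iTregs (difference -0.79, adjusted p = 0.00369). For Foxp3 the effects, -1.70 and -1.66, gave a difference of -0.04 (adjusted p = 0.933), and for Casp4 1.44 and 1.32 gave 0.12 (adjusted p = 0.68). Without mutant library 1 the differences of Cdkn1a, E2f1, Foxo1 and Foxp3 were 2.55, 1.61, -0.63 and 0.19, and that of Foxp3 again did not pass. Gclc itself fell by 0.81 in nTregs and by 1.46 in iTregs (difference 0.65, adjusted p = 0.00381, and 0.69 without mutant library 1). The fall of the Gclc transcript was thus larger in iTregs.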

How the data were processed

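Poly(A) RNA of sorted nTregs and cultured iTregs was sequenced as stranded libraries, per the labels' protocols. The authors deposited raw counts per gene for each library, made per the file headers with featureCounts 1.5.2 on Ensembl release 87 (GRCm38), with the reverse-strand setting and with multi-mapping reads counted, so near-identical genes share reads. The submitters' processing notes name STAR 2.5.2b and bcl2fastq 2.18.0.12. Groups came from the labels. The nTreg libraries held 28707579 to 39886130 counts, which sets the precision of low genes.

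Genes passing edgeR's filterByExpr (17977) were fitted over all 12 libraries, with 1 mean per group, by edgeR 4.0.16 in R 4.3.3 (quasi-likelihood test, TMM scaling, Benjamini-Hochberg adjustment over all tested genes, threshold 0.05). The method was tested on simulated counts. Alternatives were other scalings and filters, DESeq2 1.42.0, the nTreg libraries alone, a replicate block and leaving out each library. The gene lists, and the comparison itself, were chosen with earlier results of these data known.

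Named by rule were Gclc and Foxp3; up to 3 members of each list with the smallest adjusted p that passed with and without mutant library 1; the 12 highest and 12 lowest fold changes without that library among genes of at least 5 CPM; the 8 highest and 8 lowest among genes of at least 100 CPM; the 6 largest changes lost without it; and the 5 largest differences from iTregs in each direction. Some genes that the rule names are not reported here. Unnamed predicted genes, pseudogenes and receptor segments were passed over in the rules over all genes. Other genes, named as markers, as exceptions to a list's direction or for their role, were chosen after their values were seen: Smc2, Samhd1, Stc2, Hsph1, Snrpd1, Clk1, Foxo3, Foxo4, Rasgrp1, Il7r, Cish, Bcl2l11, Bach2, Satb1, Lef1, Tbx21, Kmt2a, Cd109, Gsta4 and Elovl5 are among them.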

Additional observations from a re-analysis of the deposited data

Results flagged for a closer look

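A test of the difference between the genotype effect in nTregs and in iTregs passed for 2392 genes. Values below are log2 effects, nTreg minus iTreg, with adjusted p from edgeR's quasi-likelihood test, for the 5 largest differences in each direction among genes of at least 5 CPM that also changed in nTregs.

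The nTreg effect was above the iTreg effect for Ggt1, which breaks down extracellular glutathione, by 3.93 (3.14 in nTregs and -0.79 in iTregs, adjusted p = 0.0333). It was above for Adam11 by 3.58 (1.74 and -1.84, adjusted p = 0.0114), for Ifitm1 by 3.46 (3.66 and 0.19, adjusted p = 0.013), for Cdkn1a by 2.72 (3.39 and 0.67, adjusted p = 0.00171) and for Nkg7 by 2.68 (2.79 and 0.12, adjusted p = 0.0279). Without mutant library 1 the nTreg effects of Ggt1 and Nkg7 were 1.94 and 1.64, and the differences from iTregs 2.77 and 1.56 (adjusted p = 0.0299 and 0.00196).

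For Abi3bp the difference was -3.59 (-0.81 and 2.78, adjusted p = 0.00432), for F13a1 -3.44 (-3.12 and 0.31, adjusted p = 0.00613), for Fcmr, the receptor for IgM, -2.58 (-0.91 and 1.67, adjusted p = 0.0131), for Pxdc1 -2.54 (-1.17 and 1.37, adjusted p = 0.00562) and for Cdcp1 -2.41 (-0.78 and 1.63, adjusted p = 0.00346). Without mutant library 1 the nTreg calls of Abi3bp, Fcmr and Cdcp1 were lost (adjusted p = 0.111, 0.0565 and 0.0695).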

How the results depend on the processing

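The counts of genes higher and lower stayed within 1.5 times of 3471 and 2798 under every alternative run, and the counts of genes changed at least 2-fold did so except on the lower side. There 284 became 184 with a minimum of 1 CPM in 3 libraries, which tests fewer genes, and 500 without mutant library 2, whose cause was not tested. Leaving out each library gave 2485 to 3359 genes higher, 2003 to 3056 lower, 857 to 1122 higher by at least 2-fold and 203 to 500 lower by at least 2-fold, and the share of calls that were higher went from 50.3% to 61.9%. DESeq2 called 3411 higher and 3015 lower, and the nTreg libraries alone 2483 and 2232. Without mutant library 1, 3216 genes differed in effect from iTregs, against 2392.

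The main fit did not pair same-numbered libraries, as the labels state no covariate. Deviations of mutant and WT nTregs correlated at 0.07 for number 1 and -0.16 for number 2. With so few shared numbers these values cannot show whether the libraries were paired. With the number as a block, 2919 genes were higher and 2087 lower, of which 1010 and 273 by at least 2-fold.

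Of 153 genes named by the rule, 142 kept their direction and their side of the threshold in all alternatives run and 0 reversed. Calls were lost in at least 1 alternative for the others, which include Hist1h1b, Miat, Ifng, Klrc2, Klrd1, Galnt3, Prf1, Abi3bp, Fcmr and Cdcp1. Of 43 other genes named as changed, 9 lost their call in at least 1 alternative (Gpr83, Itgae, Hist3h2ba, Rb1, Ddit3, Hars2, Eif4ebp2, Hsph1 and Il7r) and 0 reversed. Ddit4l kept its call where it was tested, but the filter of 1 CPM and the fit of the nTreg libraries alone left it out. Of 1300 list counts under alternatives, 1118 stayed within 1.5 times. Depth limits genes near or under 1 CPM. Of genes with a WT mean under 1 CPM, a class set by 1 side of the comparison, 2.74% were called lower.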
